A study of Canis lupus familiaris with 12 samples.

Results

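Gene expression was compared by bulk RNA sequencing between MDCK cells given 25 µM Yoda1 for 24 h (group T2, 3 libraries) and the control cells that the deposited sample sheet lists for 24 h (group C2, 3 libraries). These are 6 of the 12 libraries of the series, and all genes measured in them are described. MDCK is an established line of dog kidney epithelial cells that grows as a polarized sheet. All 4 groups were kept in DMEM with serum and antibiotics. The remaining libraries, groups C1 and T1 (12 h without and with Yoda1, 3 each), helped to estimate the spread and gave the 12 h values set beside those at 24 h. The sources used here do not give what the control cells received in place of Yoda1. Neither do the labels say that the numbered replicates were separate cultures, so the spread behind the p-values is that among these libraries and may be technical.

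Piezo1 is a channel of the plasma membrane that opens when the membrane is stretched and lets calcium and other cations into the cell. Yoda1 is a small molecule that opens Piezo1 without a mechanical stimulus. In epithelia the channel has been tied to the sensing of crowding and stretch, to cell division and to the shedding of cells, and calcium entry can act on transcription through calmodulin, calcineurin and kinase cascades. The files pair no gene ID with the symbol PIEZO1 or PIEZO2, so the channel itself was not followed.

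Library totals were 33150371 to 38889592 counts in C2 and 27915926 to 36545726 in T2. Levels below are CPM (read counts scaled to the library total, after TMM scaling), and compare a gene with itself across libraries. The C2 libraries differed from each other more than those of T2 did: the biological coefficient of variation, estimated within each group alone, was 20.9% in C2 and 8.81% in T2. Between C2 replicates 1 and 2 the chi-square per gene was 91.4, against 5.32 between T2 replicates 2 and 3. A principal component with 36.3% of the variance of the 6 libraries separated T2 from C2, and the next, with 24.2%, separated C2 replicate 1 from C2 replicate 2. Of 14 epithelial markers the files name 7, and all 7 were present, with a summed level of 2481 to 2629 TPM in C2 and 1788 to 2020 TPM in T2 (TPM is the authors' value per transcript length). Renal tubule markers summed to 495 to 694 and 378 to 433 TPM. Fibroblast markers summed to at most 2.18 TPM in any library, with LUM, DCN and POSTN at 0. Endothelial markers summed to 28.8 to 45.0 TPM in C2 and 27.1 to 31.0 TPM in T2, most of it from FLT1. The sum of immune markers, 712 to 827 TPM in C2 and 685 to 802 TPM in T2, came almost wholly from 1 of 2 IDs that carry the symbol CD79A, at a mean of 772 and 744 TPM, while PTPRC was at 0.003 and 0.01 TPM. The pairing of that ID with CD79A was not checked here, so the sum is not a measure of immune cells.

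After 24 h with Yoda1 many genes of ribosome assembly, translation and splicing were called higher, and many of the interferon response, antigen presentation, lysosomes, primary cilia, tight junctions and epithelial transcription factors were called lower. Of 14169 genes tested, 2630 were called at an adjusted p under 0.05 by edgeR's quasi-likelihood test, 18.6% of all. They were 1269 higher (8.96%) and 1361 lower (9.61%), so that 48.3% of the calls were higher; scaled by library size alone this share was 57.1%, and on log2(TPM + 1) 59.5%. Most differences were small. Below, a value with ± SE, or in brackets after a gene, is a log2 fold change of T2 against C2 unless another quantity is named. The median called gene was higher by 0.40 or lower by 0.54 on the log2 scale, and 993 of the higher genes (78.3%) and 740 of the lower ones (54.4%) changed by under 1.5-fold. A change of at least 2-fold was called for 100 genes higher (0.706%) and 273 lower (1.93%), and of at least 4-fold for 16 and 47. Without T2 replicates 2 and 3 the 373 genes called at 2-fold were 218 and 215. Among the 7682 tested genes that the files name, 10.1% were called higher and 10.6% lower. The gene lists below hold only such named genes, yet are set beside the shares over all genes tested. In 2350 genes (16.6%) every T2 library lay above every C2 library, and in 2293 (16.2%) below. The share of genes called rose with the level, from 9.68% among the genes of lowest level to 25.6% among those of highest level, in 4 equal groups. Shares of the gene lists were not matched for level. When only the 6 libraries were fitted, with less information on the spread, 1131 genes were called, 1125 of them among the 2630. Without T2 replicate 3, T2 replicate 2 or C2 replicate 3 the count was 1134, 1268 and 1638.

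**Figure D1:**
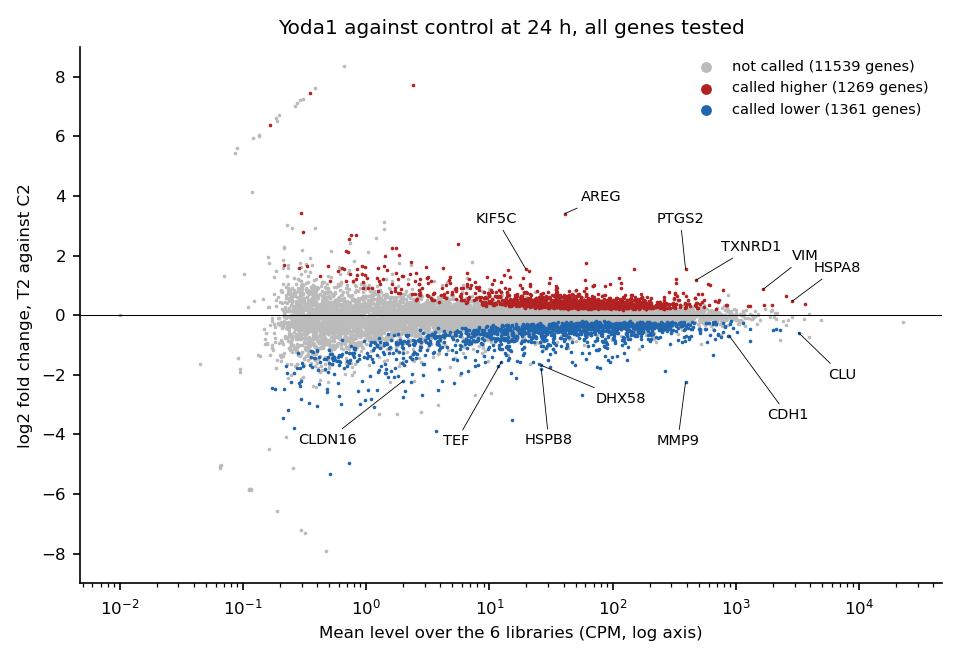
Log2 fold change of T2 against C2 (vertical axis) against the mean level over the 6 libraries in CPM (log axis) for the 14169 genes tested. Red points are the 1269 genes called higher, blue points the 1361 called lower and grey points the 11539 not called; most called genes lie within 1 log2 unit of 0 and AREG stands highest among the 13 labelled genes.

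Among genes with a symbol and at least 5 CPM, a growth factor, a motor protein and a redox enzyme were among those with the widest differences on the higher side. AREG (ENSCAFG00845006713), amphiregulin, a ligand of the EGF receptor, was at 12.7, 4.32 and 3.95 CPM in C2 and 65.8, 78.1 and 80.003 CPM in T2. All T2 libraries lay above all C2 libraries, and within C2 replicate 1 was the highest (log2 fold change 3.41 ± 0.38 SE, edgeR adjusted p = 0.00057; 4.17 without C2 replicate 1). KIF5C (ENSCAFG00845007529), a kinesin heavy chain best known from neurons, was at 12.9, 8.66 and 8.44 CPM in C2 and 32.4, 28.8 and 27.1 CPM in T2 and rose (log2 fold change 1.55 ± 0.18 SE, edgeR adjusted p = 0.00031). IFRD1 (ENSCAFG00845030316), a transcriptional co-regulator, was at 142, 255 and 195 CPM in C2 and 452, 449 and 479.6 CPM in T2 (log2 fold change 1.22 ± 0.16 SE, edgeR adjusted p = 0.00066). The T2 values of IFRD1 lay close together while C2 replicate 1 was low. TXNRD1 (ENSCAFG00845006566), a cytosolic thioredoxin reductase, rose from 278, 352 and 245 CPM in C2 to 644, 654 and 681 CPM in T2 (log2 fold change 1.18 ± 0.13 SE, edgeR adjusted p = 0.00025). FHDC1, a formin (1.26 ± 0.14 SE), SLC6A17, a vesicular amino acid transporter (1.24 ± 0.17 SE), CDC42EP2, an effector of the GTPase CDC42 (1.22 ± 0.16 SE), PDE3A, a phosphodiesterase of cyclic nucleotides (1.18 ± 0.21 SE), and ACKR3, a scavenging chemokine receptor (1.17 ± 0.21 SE), rose with no overlap of the groups. CEMIP, which takes part in the breakdown of hyaluronan (1.55 ± 0.36 SE), and SULF1, a sulfatase of heparan sulfate (1.47 ± 0.45 SE), were called but depended on single libraries. CEMIP was not called without T2 replicate 2 (edgeR adjusted p = 0.058). SULF1 was called in 1 of the 12 fits that left out 1 library. SULF1 had a log2 fold change of 2.31 without C2 replicate 1.

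On the lower side stood a metalloproteinase, a small heat shock protein and a death ligand. MMP9 (ENSCAFG00845017615), a gelatinase, was at 349, 1098 and 488 CPM in C2 and 139, 110.5 and 158 CPM in T2; C2 replicate 2 held the highest value and every T2 library was under every C2 library (log2 fold change -2.25 ± 0.48 SE, edgeR adjusted p = 0.013). HSPB8 (ENSCAFG00845028809), a small heat shock protein that works with BAG3 in the clearance of misfolded proteins, was at 35.8, 57.4 and 30.2 CPM in C2 and 11.4, 11.2 and 12.4 CPM in T2 and fell with no overlap (log2 fold change -1.82 ± 0.20 SE, edgeR adjusted p = 0.00034). TNFSF10 (ENSCAFG00845025786), the death ligand TRAIL, was at 48.3, 59.9 and 34.7 CPM in C2 and 14.4, 12.998 and 15.7 CPM in T2 (log2 fold change -1.73 ± 0.22 SE, edgeR adjusted p = 0.00066). The groups were far apart for TNFSF10. ANXA13, an intestinal and renal annexin (-2.12 ± 0.44 SE), IFGGC1 (-1.96 ± 0.34 SE), TRPM3, a cation channel (-1.70 ± 0.24 SE), DEPTOR, an inhibitor of the kinase mTOR (-1.69 ± 0.31 SE), RTP4, an interferon-induced chaperone of receptors (-1.68 ± 0.22 SE), and TCN2, the transport protein of vitamin B12 (-1.52 ± 0.35 SE), also fell. TCN2 was at 292 CPM in C2 replicate 1 against 96.9 and 194 CPM in the other C2 libraries and was lower in every T2 library. ANXA13 was likewise highest in C2 replicate 1, at 48.6 CPM against 10.5 and 20.5 CPM. MMP9 was not called without T2 replicate 2 (edgeR adjusted p = 0.056). TCN2 was not called without T2 replicates 2 or 3 (edgeR adjusted p up to 0.072). ANXA13 had a log2 fold change of -1.35 without C2 replicate 1.

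**Figure D2:**
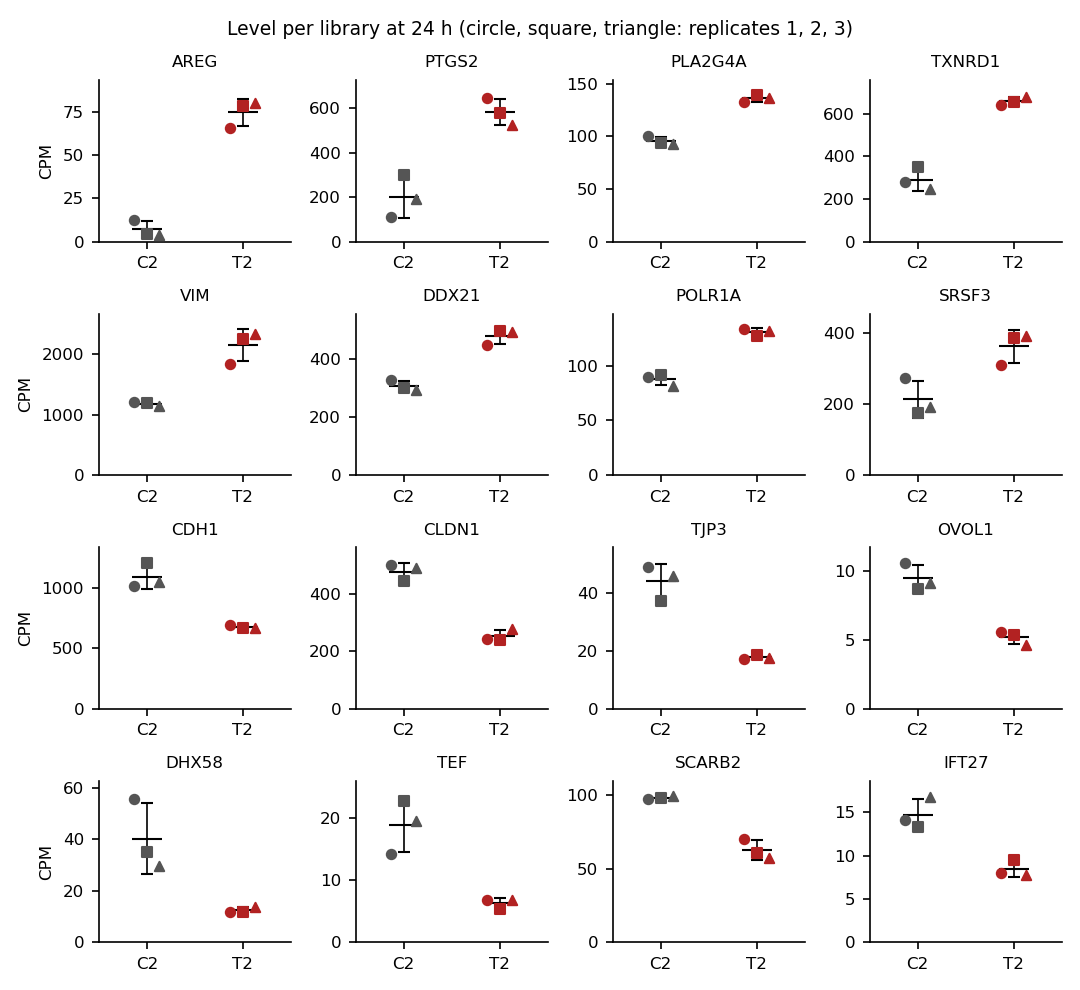
Level in CPM (vertical axis, from 0) of 16 genes in each C2 library (grey) and T2 library (red); circles, squares and triangles are replicates 1, 2 and 3, bars are the mean and the SD of 3 libraries. The groups do not overlap for any of the 16 genes, the C2 points of PTGS2 and DHX58 are spread widely, and those of SCARB2 and VIM lie close together.

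Of the 52 lists, that of genes that build ribosomes had the largest share of members called higher. Ribosomes are assembled in the nucleolus, where RNA polymerase I makes the precursor RNA and a large set of assembly factors cut, modify and fold it together with the ribosomal proteins. Of 45 tested IDs of the ribosome biogenesis list 32 were called, all of them higher (71.1% against 8.96% of all genes), with a median log2 fold change of 0.38 against -0.01 over all genes. In 43 of the 45 the fold change was positive; the exceptions, named after their values were seen, were NHP2 at -0.12 and PES1 at -0.07, neither called. The median of the list relative to the C2 mean was 0.27, 0.42 and 0.41 in T2 replicates 1, 2 and 3 and -0.002, 0.01 and -0.005 in the C2 libraries. T2 replicate 1 was thus the lowest of the treated libraries, and no treated library overlapped the controls. POLR1A (ENSCAFG00845013628), the largest subunit of RNA polymerase I, was at 89.6, 91.8 and 81.8 CPM in C2 and 133, 127 and 132 CPM in T2 (log2 fold change 0.57 ± 0.08 SE, edgeR adjusted p = 0.00075). DDX21 (ENSCAFG00845003052), a nucleolar RNA helicase, was at 328, 301 and 293 CPM in C2 and 449.5, 496 and 493 CPM in T2 (log2 fold change 0.64 ± 0.09 SE, edgeR adjusted p = 0.00068); another ID with the same symbol was not called, at 0.01. LYAR (0.64 ± 0.11 SE) and RRP8, a methyltransferase of ribosomal RNA (0.59 ± 0.09 SE), rose by similar amounts. NPM1, nucleophosmin, the abundant nucleolar chaperone, was at 1534, 1361 and 1575 CPM in C2 and 1733, 2032 and 1936 CPM in T2 (log2 fold change 0.35 ± 0.08 SE, edgeR adjusted p = 0.012). The remaining called members ran from 0.26 (WDR75) to 0.57 (DDX10) on the log2 scale and included GAR1 and DKC1 of the particles that modify ribosomal RNA, the export and assembly factors NOB1 and BYSL, and the polymerase I factors POLR1E, POLR1D and RRN3, named after their values were seen. Fitted on the 6 libraries alone 23 members were called, and without T2 replicates 2 and 3 the count was 20 and 21. NPM1 was not called without T2 replicates 2 or 3 (edgeR adjusted p up to 0.064).

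Many translation factors were called higher, but no ribosomal protein was called. Among translation factors and the synthetases that load transfer RNAs, 23 of 53 IDs were called, all higher (43.4%; median 0.19). EIF3J (ENSCAFG00845027834), a subunit that helps initiation factors bind the ribosome, was at 83.8, 86.3 and 87.3 CPM in C2 and 116, 124 and 126 CPM in T2 (log2 fold change 0.51 ± 0.06 SE, edgeR adjusted p = 0.0005). EIF2B4, a subunit of the factor that recharges eIF2 with GTP (0.47 ± 0.07 SE), AIMP2, a scaffold of the synthetase complex (0.43 ± 0.10 SE), and RARS1, the arginyl-tRNA synthetase (0.42 ± 0.06 SE), rose with no overlap of the groups. EIF4A1, the helicase of the cap-binding complex, rose from 715, 831 and 709 CPM in C2 to 859, 983 and 1006 CPM in T2 (log2 fold change 0.34 ± 0.08 SE, edgeR adjusted p = 0.016). Fitted on the 6 libraries alone 8 members were called, and without T2 replicates 2 and 3 the count was 13 and 11. Of 82 IDs of ribosomal proteins edgeR called 0, with 0 at an unadjusted p under 0.05. DESeq2 and voom in limma also called 0. Their fold changes ran from -0.32 to 0.18 with a median of 0.01, and the list's median moved by as much within C2 (-0.21 in replicate 2, 0.15 in replicate 3) as in T2. Ribosomal proteins have near-identical copies in the genome, and several of these symbols carry 2 or more IDs, so reads may be divided between copies. In the list of mitochondrial import and ribosome genes 9 of 57 were called higher (15.8%) and 1 lower (1.75%). Over all genes these shares were 8.96% and 9.61%. MRPL35 (0.44 ± 0.09 SE), MRPS30 (0.36 ± 0.08 SE) and TIMM10 (0.35 ± 0.09 SE) were among those called higher. But on the 6 libraries alone, and without T2 replicate 2 or 3, the count called higher in this list was 1, 2 and 2. EIF4A1 was not called without C2 replicate 3 or T2 replicates 2 or 3 (edgeR adjusted p up to 0.084). TIMM10 was not called without T2 replicates 2 or 3 (edgeR adjusted p up to 0.11).

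Splicing factors rose in part, with 17 of 58 called higher (29.3%) and 1 lower (SRPK2, a kinase of SR proteins, at -0.25, named after its value was seen). SRSF3 (ENSCAFG00845009568), an SR protein that marks exons and also acts in RNA export, was at 274, 175 and 191 CPM in C2 and 309.5, 387 and 391 CPM in T2 (log2 fold change 0.77 ± 0.14 SE, edgeR adjusted p = 0.0035). T2 replicate 1 and C2 replicate 1 were nearest to each other. SF3B4 (ENSCAFG00845012146), of the complex that recognizes the branch point, was at 118, 124 and 118 CPM in C2 and 179, 179 and 196 CPM in T2 (log2 fold change 0.62 ± 0.06 SE, edgeR adjusted p = 0.0002). MBNL2, a regulator of alternative splicing and of transcript location, rose from 66.2, 95.98 and 65.7 CPM in C2 to 168, 147 and 162 CPM in T2 (log2 fold change 1.07 ± 0.15 SE, edgeR adjusted p = 0.00081), and LUC7L, a factor tied to the U1 particle, rose (0.61 ± 0.10 SE). Further SR proteins, SRSF1 (0.49), SRSF6 (0.43) and SRSF7 (0.57), and their relative TRA2B (0.46) were called higher as well, named after their values were seen; SRSF1 and SRSF7 with overlapping groups. The 6 libraries alone gave 9 members called higher, and without T2 replicate 2 or 3 there were 10.

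Cytosolic chaperones changed in both directions. The list had 9 of 34 members called higher (26.5%) and 5 lower (14.7%), against 8.96% and 9.61% of all genes. HSPA8 (ENSCAFG00845012887), the constitutive HSP70 of the cytosol, was at 2618, 2229 and 2383 CPM in C2 and 3074, 3393 and 3591 CPM in T2 (log2 fold change 0.48 ± 0.09 SE, edgeR adjusted p = 0.0036), CRYAB, the small heat shock protein alpha B-crystallin, rose (0.61 ± 0.12 SE), and DNAJB1, CCT2, CCT3 and TCP1, a co-chaperone and subunits of the chaperonin that folds actin and tubulin, rose by 0.47, 0.23, 0.38 and 0.29, named after their values were seen. In contrast to CRYAB the small heat shock proteins HSPB8, HSPB6 (-1.18 ± 0.29 SE) and HSPB1 (-0.86 ± 0.13 SE) fell. Without C2 replicate 3, T2 replicate 2 or T2 replicate 3 the number called higher was 4 and the number called lower 3. HSPB6 was not called without C2 replicate 3 or T2 replicates 2 or 3 (edgeR adjusted p up to 0.075).

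Genes of the cell cycle rose in small number and depended on single libraries. Called higher and lower were 16.7% and 3.70% of the S phase list and 17.9% and 1.79% of the mitosis list. Over all genes these shares were 8.96% and 9.61%. In the list of DNA replication and S phase 9 of 54 were called higher and 2 lower, with ORC1, a subunit of the origin recognition complex (0.77 ± 0.17 SE), and GINS3, of the replicative helicase (0.50 ± 0.11 SE), as examples. In the mitosis list 10 of 56 were called higher and 1 lower, among them CDC25A, a phosphatase that activates cyclin-dependent kinases (0.67 ± 0.11 SE), UBE2S, a ubiquitin-conjugating enzyme of the anaphase-promoting complex (0.54 ± 0.11 SE), AURKA, a kinase of the spindle poles (0.44 ± 0.08 SE), and SGO2, which protects centromeric cohesion (0.48 ± 0.11 SE). T2 replicate 1 did not share the shift: its list medians were 0.01 for S phase and -0.03 for mitosis, against 0.18 and 0.17 in T2 replicate 2 and 0.25 and 0.13 in T2 replicate 3. The 6 libraries alone gave 0 S phase genes and 4 mitosis genes called higher by edgeR's test. Among S phase genes the number called higher was 4, 3 and 3 without C2 replicate 3, T2 replicate 2 and T2 replicate 3, and 15, 14 and 14 without C2 replicate 1, C2 replicate 2 and T2 replicate 1. For mitosis it was 6, 6, 5 and 4 without C2 replicate 2, C2 replicate 3, T2 replicate 2 and T2 replicate 3.

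**Figure D3:**
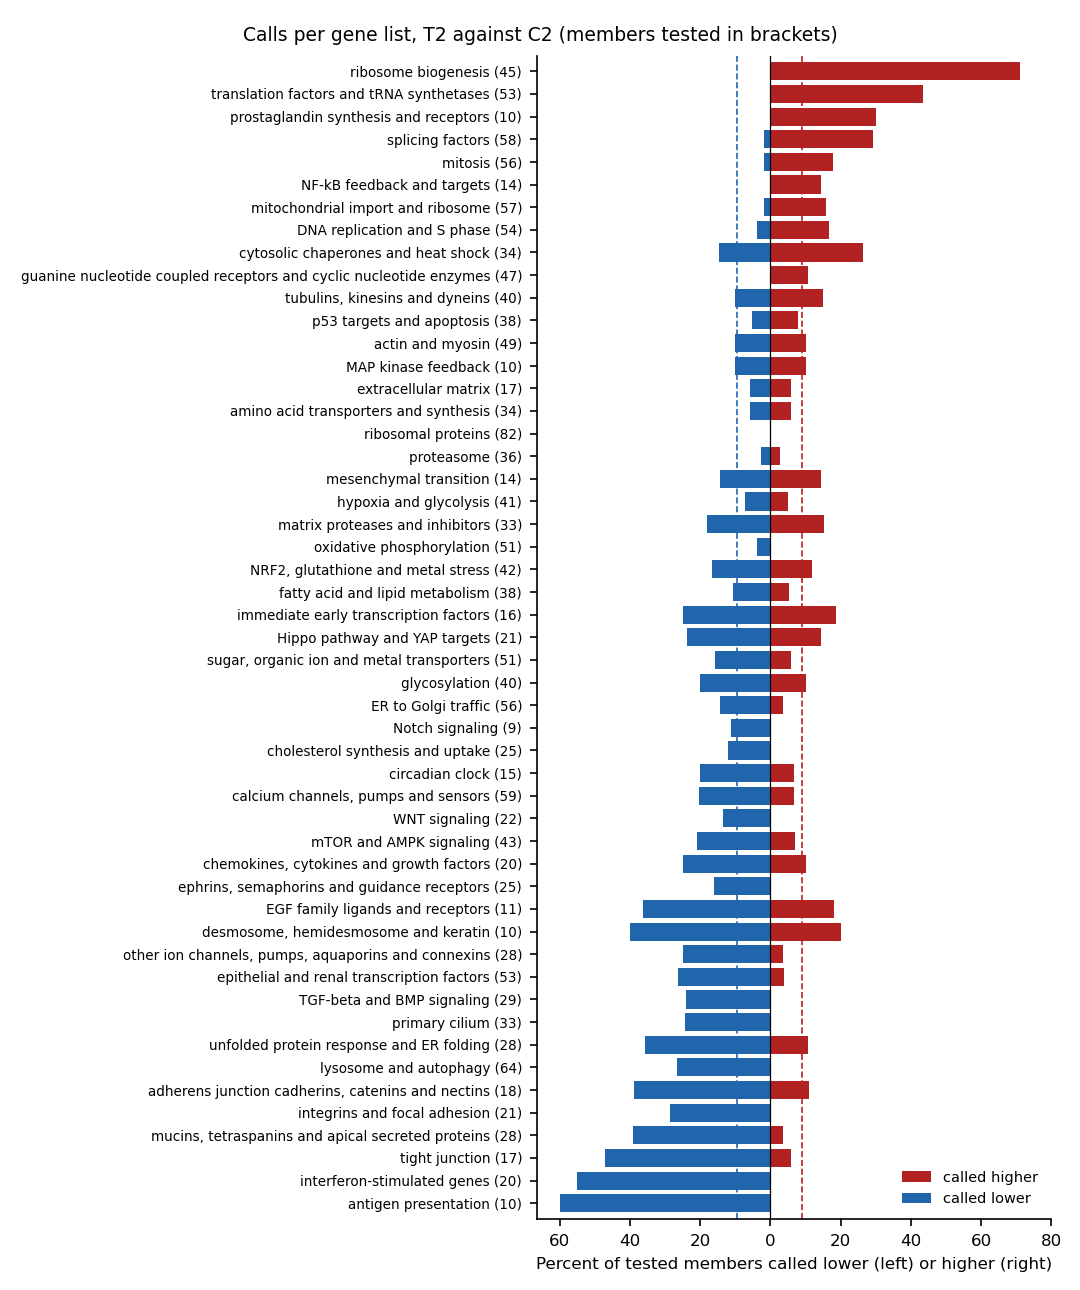
Percent of the tested members of each of 51 gene lists that were called higher (red, to the right) or lower (blue, to the left) in T2 against C2, with the number of members tested in brackets. Dashed lines mark the shares over all genes tested, 8.96% higher and 9.61% lower; ribosome biogenesis reaches 71.1% on the higher side, and antigen presentation and interferon-stimulated genes reach 60% and 55% on the lower side.

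A ligand and a feedback inhibitor of the EGF receptor rose, while the receptor ERBB2 and a sheddase fell. EGF family ligands are shed from the cell surface by metalloproteinases and activate receptors of the ERBB family. Of 11 tested members 2 were called higher (18.2%) and 4 lower (36.4%), against 8.96% and 9.61% of all genes. Beside AREG, ERRFI1, a feedback inhibitor of the EGF receptor, rose from 96.7, 118 and 124 CPM in C2 to 166, 173 and 163 CPM in T2 (log2 fold change 0.57 ± 0.09 SE, edgeR adjusted p = 0.0015). ERBB2 (-0.43 ± 0.10 SE) and the sheddase ADAM10 (-0.42 ± 0.11 SE) fell, as did, named after their values were seen, RHBDF1 (-0.36), which guides sheddases to the surface, and the ligand EPGN (-1.60). Without T2 replicate 2 or 3 only 2 members of this list were called lower. ADAM10 was not called without T2 replicates 2 or 3 (edgeR adjusted p up to 0.076).

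Prostaglandins are made when a phospholipase frees arachidonic acid and cyclooxygenases convert it. All 3 called members of 10 (30%) were higher: a phospholipase, a cyclooxygenase and a receptor. PLA2G4A (ENSCAFG00845005405), the cytosolic phospholipase that needs calcium to bind membranes, was at 100.2, 93.97 and 92.7 CPM in C2 and 132, 139.9 and 136 CPM in T2 (log2 fold change 0.51 ± 0.09 SE, edgeR adjusted p = 0.0023). PTGS2 (ENSCAFG00845005378), the inducible cyclooxygenase, was at 110.4, 298 and 189 CPM in C2 and 646, 576 and 525 CPM in T2 (log2 fold change 1.55 ± 0.29 SE, edgeR adjusted p = 0.0054). C2 replicate 2 was the highest control and C2 replicate 1 the lowest, yet each T2 library exceeded every C2 library. PTGER2, a receptor of prostaglandin E2 that raises cyclic AMP, rose from 126, 139.9 and 125 CPM in C2 to 179, 161 and 168 CPM in T2 (log2 fold change 0.38 ± 0.08 SE, edgeR adjusted p = 0.0062). The list of receptors coupled to guanine nucleotide proteins and of cyclic nucleotide enzymes held 5 called members of 47, all higher. That share of 10.6% was near the 8.96% of all genes called higher. They were PTGER2, PDE3A, GPRC5A, an orphan receptor (0.59 ± 0.16 SE), and, named after their values were seen and all at low level, ADORA2A, an adenosine receptor (1.69), and CREB5, a factor of the cyclic AMP response family (1.61). Without T2 replicate 2 or 3 there were 3. GPRC5A was not called without C2 replicate 3 or T2 replicates 2 or 3 (edgeR adjusted p up to 0.096).

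Early response genes went both ways. EGR1, induced by serum and calcium in many cells, was at 104, 78.7 and 122 CPM in C2 and 48.8, 44.98 and 42.3 CPM in T2 and fell (log2 fold change -1.16 ± 0.14 SE, edgeR adjusted p = 0.00041). JUNB (-0.58 ± 0.11 SE) and FOS (-0.53 ± 0.10 SE) fell too, while FOSL2, a FOS relative of slower kinetics, rose from 206, 292 and 223 CPM in C2 to 446, 376 and 393 CPM in T2 (log2 fold change 0.75 ± 0.13 SE, edgeR adjusted p = 0.0025). In total 3 of 16 immediate early genes were called higher (18.8%) and 4 lower (25%). The higher count was 7 without C2 replicate 2 and 1 without T2 replicate 3. DUSP16, a phosphatase of stress-activated kinases (0.77 ± 0.13 SE), rose and SPRY1, an inhibitor of receptor kinase signaling (-0.42 ± 0.10 SE), fell, the only called genes of 10 in the MAP kinase feedback list. That is 10% each way, near the 8.96% and 9.61% of all genes. Of 14 NF-kB genes the 2 called (14.3%) were subunits, RELA (0.32 ± 0.10 SE) and NFKB2 (0.40 ± 0.12 SE). Both were lost on the 6 libraries alone. Among 20 chemokines, cytokines and growth factors 2 were called higher (10%) and 5 lower (25%). The lower ones included VEGFA, the vascular growth factor (-1.07 ± 0.14 SE), PDGFA (-0.82 ± 0.17 SE) and the membrane-bound chemokine CX3CL1 (-0.79 ± 0.16 SE). SPRY1 was not called without T2 replicates 2 or 3 (edgeR adjusted p up to 0.081). NFKB2 was not called without C2 replicates 1 or 3 or T2 replicates 1, 2 or 3 (edgeR adjusted p up to 0.11). RELA was called in 5 of the 12 fits that left out 1 library. RELA and CX3CL1 had a log2 fold change of 0.21 and -0.52 without C2 replicate 1.

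Of the interferon-stimulated genes 11 of 20 were called, all lower. These are antiviral and sensor genes that interferons switch on through STAT and IRF factors, and cultured cells hold a basal level of them. The share was 55%, against 9.61% of all genes. All 20 had a negative fold change, with a median of -1.003. DHX58 (ENSCAFG00845010366), the RNA sensor LGP2, was at 55.9, 35.01 and 29.8 CPM in C2 and 11.9, 11.7 and 13.9 CPM in T2 (log2 fold change -1.68 ± 0.20 SE, edgeR adjusted p = 0.00048). OAS1 (ENSCAFG00845021979), which makes oligoadenylates on double-stranded RNA, was at 163, 184 and 122 CPM in C2 and 51.1, 53.9 and 77.1 CPM in T2 (log2 fold change -1.37 ± 0.21 SE, edgeR adjusted p = 0.0016). MX1 (ENSCAFG00845030104), a dynamin-like antiviral GTPase, was at 104, 111 and 54.1 CPM in C2 and 26.1, 28.04 and 42.4 CPM in T2 (log2 fold change -1.47 ± 0.32 SE, edgeR adjusted p = 0.012), with C2 replicate 3 the lowest control and T2 replicate 3 the highest treated library. The same order held for the list's median relative to the C2 mean, which was 0.10, 0.23 and -0.25 in C2 and -1.10, -1.004 and -0.77 in T2. IFI35 (-1.56 ± 0.26 SE), PARP9, an ADP-ribosyltransferase (-1.12 ± 0.15 SE), and USP18, which removes the ubiquitin-like ISG15 and damps interferon receptors (-0.92 ± 0.15 SE), fell as well. When single libraries were left out 8 to 14 members were called lower, and 10 were on the 6 libraries alone. MX1 was not called without T2 replicate 2 (edgeR adjusted p = 0.054).

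Of 10 antigen presentation genes 6 were called, all lower (60%; median -0.43), and all 10 were negative. B2M (ENSCAFG00845028622), the light chain of MHC class I molecules, was at 211, 176 and 179.8 CPM in C2 and 132, 138 and 146 CPM in T2 (log2 fold change -0.45 ± 0.09 SE, edgeR adjusted p = 0.0068). TAP2 (ENSCAFG00845017879), a subunit of the transporter that carries peptides into the endoplasmic reticulum, was at 63.8, 56.7 and 61.2 CPM in C2 and 43.9, 43.995 and 43.5 CPM in T2 (log2 fold change -0.47 ± 0.08 SE, edgeR adjusted p = 0.0024). The libraries within each group differed little for TAP2. PSMB8, a subunit of the immunoproteasome (-0.48 ± 0.08 SE), and the chaperone CANX (-0.48 ± 0.09 SE) fell, and so did, named after their values were seen, PSME1 (-0.31) and PSME2 (-0.30), activators of the proteasome. In the constitutive proteasome list PSMG1, an assembly chaperone (0.25 ± 0.06 SE), and the catalytic subunit PSMB5 (-0.23 ± 0.07 SE) were the called genes of 36. That was 2.78% each way, under the 8.96% and 9.61% of all genes. With the 6 libraries alone 4 antigen presentation genes were called lower, and without C2 replicate 2 all 10 were. PSMG1 was not called without T2 replicate 2 (edgeR adjusted p = 0.059). PSMB5 was called in 6 of the 12 fits that left out 1 library.

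More epithelial junction genes were called lower than higher. Tight junctions seal the space between cells through claudin strands anchored to cytoplasmic scaffolds, and adherens junctions join the cells through cadherins and catenins. Of 17 tight junction genes 8 were called lower (47.1%) and 1 higher. CLDN1 (ENSCAFG00845024289), a strand-forming claudin, was at 499, 443 and 489 CPM in C2 and 241, 241 and 276 CPM in T2 (log2 fold change -0.92 ± 0.08 SE, edgeR adjusted p = 0.00011), and TJP3 (ENSCAFG00845008169), a ZO-family scaffold, was at 48.9, 37.4 and 45.9 CPM in C2 and 17.4, 18.4 and 17.6 CPM in T2 (log2 fold change -1.31 ± 0.14 SE, edgeR adjusted p = 0.00025). The C2 and T2 libraries were far apart for both. CGN, cingulin, which ties junctions to myosin (-0.71 ± 0.06 SE), and its relative CGNL1 (-0.64 ± 0.20 SE) fell. CLDN3 (-0.61) and OCLN (-0.30) fell and CLDN12 (0.46) rose, named after their values were seen. CLDN16 (ENSCAFG00845024328), a claudin of the thick ascending limb that carries magnesium and calcium between cells, was at 3.40, 2.52 and 3.87 CPM in C2 and 0.716, 0.704 and 0.675 CPM in T2 (log2 fold change -2.22 ± 0.29 SE, edgeR adjusted p = 0.00057). Within the 6 libraries alone 5 members were called lower, and without T2 replicate 2 or 3 the count was 4 and 5. In the adherens junction list 7 of 18 were called lower (38.9%) and 2 higher (11.1%), against 9.61% and 8.96% of all genes. CDH1 (ENSCAFG00845010704), E-cadherin, was at 1013, 1208 and 1051 CPM in C2 and 693, 669 and 664 CPM in T2 (log2 fold change -0.69 ± 0.09 SE, edgeR adjusted p = 0.00057), and SHROOM4, an actin-binding regulator of apical constriction (-0.94 ± 0.17 SE), NECTIN4 (-0.56 ± 0.14 SE) and the receptor phosphatase PTPRM (-0.54 ± 0.11 SE) fell beside it. CDH2, N-cadherin, rose by 1.39 at a mean of 2.25 CPM with overlapping groups, named after its value was seen, and was 1 of the genes lost on the 6 libraries alone, where 4 members were called lower and 0 higher by edgeR's test. Without T2 replicate 3 also 4 were called lower. The epithelial marker list shares CDH1, CLDN3 and OCLN with the genes above, so it is not a separate line of evidence. Of its 7 markers 5 were called lower, and the sum was 2481 to 2629 TPM in C2 and 1788 to 2020 TPM in T2. KRT18, the largest part of that sum, was at a mean of 1434 TPM in C2 and 904 TPM in T2. CLDN7 was at a mean of 458 and 560.1 TPM. Fibroblast markers stayed at or under 2.18 TPM, with LUM, DCN and POSTN at 0. In bulk RNA fewer cells of a type and less RNA per cell cannot be told apart. NECTIN4 was not called without T2 replicates 2 or 3 (edgeR adjusted p up to 0.074). CGNL1 was called in 1 of the 12 fits that left out 1 library. CGNL1 and NECTIN4 had a log2 fold change of -0.31 and -0.37 without C2 replicate 1.

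Keratins, hemidesmosome and filament genes changed in both directions. KRT18 (ENSCAFG00845023645), the main acidic keratin of simple epithelia, was at 1114, 1018 and 1086 CPM in C2 and 559, 704 and 709 CPM in T2 (log2 fold change -0.71 ± 0.14 SE, edgeR adjusted p = 0.0051). VIM (ENSCAFG00845013892), vimentin, the intermediate filament of mesenchymal and many cultured epithelial cells, was at 1203, 1187 and 1142 CPM in C2 and 1845, 2249 and 2341 CPM in T2 (log2 fold change 0.87 ± 0.10 SE, edgeR adjusted p = 0.00029). Control values of VIM lay close together and T2 replicate 1 was the lowest treated library. COL17A1, a hemidesmosome collagen (-0.58 ± 0.12 SE), and DSC1, a desmosomal cadherin (-0.48 ± 0.15 SE), fell, while KRT80 (0.58 ± 0.13 SE) and PLEC, plectin, a linker of filaments to junctions (0.39 ± 0.12 SE), rose. The desmosome and keratin list of 10 had 4 called lower (40%) and 2 higher (20%). Without T2 replicate 2 it had 2 called lower. In the mesenchymal transition list of 14, VIM and CDH2 were called higher (14.3%) and TGFB2 (-0.77 ± 0.15 SE) was among the 2 called lower (14.3%). Of 21 integrin and focal adhesion genes 6 were called, all lower (28.6%). Over all genes 8.96% were called higher and 9.61% lower. Examples were the integrin ITGB1 (-0.50 ± 0.09 SE), the kinase SRC (-0.50 ± 0.06 SE), the scaffold PARVA (-0.46 ± 0.07 SE) and the integrin activator TLN1 (-0.46 ± 0.13 SE). TLN1 was not called without C2 replicate 2 or T2 replicates 2 or 3 (edgeR adjusted p up to 0.11). DSC1 and PLEC were called in 4 and 2 of the 12 fits that left out 1 library. DSC1 and TLN1 had a log2 fold change of -0.25 and -0.26 without C2 replicate 2.

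Transcription factors of epithelial and renal identity were lower in part. Of 53 tested members 14 were called lower (26.4%) and 2 higher, with a median of -0.19. OVOL1, a repressor of mesenchymal genes, was at 10.5, 8.69 and 9.08 CPM in C2 and 5.57, 5.32 and 4.65 CPM in T2 (log2 fold change -0.87 ± 0.14 SE, edgeR adjusted p = 0.0014), and the HOX factors HOXA7 (-0.66 ± 0.15 SE) and HOXA5 (-0.56 ± 0.15 SE) fell. KLF5, a factor of proliferating epithelium, rose by 0.35, named after its value was seen. GRHL2, which sustains CDH1 and claudin genes, fell by 0.46, and the mineralocorticoid receptor NR3C2 fell by 1.45 at low level, named on the same terms. On the 6 libraries alone 10 members were called lower and 0 higher by edgeR's test, and without T2 replicates 2 and 3 the lower count was 9 and 8. Apical and secreted epithelial proteins went the same way, with 11 of 28 called lower and 1 higher (39.3% lower). TSPAN15, a tetraspanin partner of ADAM10, was at 116, 105 and 138 CPM in C2 and 58.7, 62.6 and 62.6 CPM in T2 (log2 fold change -0.97 ± 0.10 SE, edgeR adjusted p = 0.00021), and LGALS9, a galectin of the apical domain, was at 125, 117 and 102 CPM in C2 and 50.4, 60.4 and 72.6 CPM in T2 (log2 fold change -0.90 ± 0.16 SE, edgeR adjusted p = 0.003). CLU, clusterin, among the most abundant transcripts called, was at 4880.1, 3139.7 and 3627 CPM in C2 and 2747, 2504 and 2489.8 CPM in T2 (log2 fold change -0.59 ± 0.14 SE, edgeR adjusted p = 0.013). Without C2 replicate 3, T2 replicate 2 and T2 replicate 3 the number called lower in this list was 6, 5 and 5. HOXA7 was not called without T2 replicate 3 (edgeR adjusted p = 0.062). HOXA5 was not called without C2 replicate 3 or T2 replicates 2 or 3 (edgeR adjusted p up to 0.093). CLU was not called without T2 replicates 2 or 3 (edgeR adjusted p up to 0.061). CLU had a log2 fold change of -0.39 without C2 replicate 1.

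**Figure D4:**
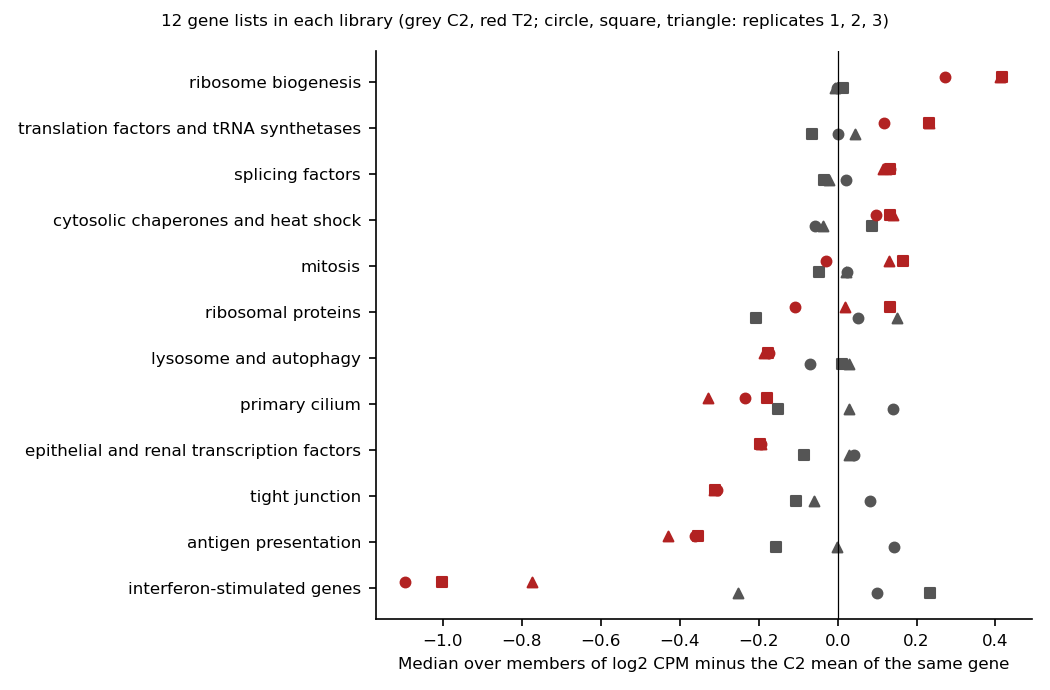
Median over the members of 12 gene lists of the log2 CPM in a library minus the mean of the same gene in C2 (horizontal axis), for each C2 library (grey) and T2 library (red); circles, squares and triangles are replicates 1, 2 and 3. Ribosome biogenesis stands at 0.27 to 0.42 and interferon-stimulated genes at -1.10 to -0.77 in T2, the ribosomal protein medians of C2 and T2 overlap, and T2 replicate 1 is the lowest treated library in mitosis.

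Of the 52 lists, lysosome and autophagy, a large list, had the most members called lower by count. By share it stood below several lists, such as antigen presentation (60%), interferon-stimulated genes (55%) and tight junction (47.1%). Lysosomes break down material from endocytosis and autophagy, and the factor TFEB drives many of their genes. Of 64 tested members 17 were called, all lower (26.6% against 9.61% of all genes, median -0.19), and 52 were negative. SCARB2 (ENSCAFG00845029992), a lysosomal membrane protein that also delivers glucocerebrosidase, was at 97.1, 98.1 and 99.2 CPM in C2 and 69.96, 60.5 and 57.3 CPM in T2 (log2 fold change -0.65 ± 0.08 SE, edgeR adjusted p = 0.00048). GLB1 (ENSCAFG00845023378), the lysosomal beta-galactosidase, was at 66.5, 85.1 and 75.1 CPM in C2 and 50.9, 50.8 and 49.2 CPM in T2 (log2 fold change -0.59 ± 0.09 SE, edgeR adjusted p = 0.0012). Control and treated libraries were each tight for SCARB2 and did not overlap for either gene. MANBA, beta-mannosidase (-0.60 ± 0.11 SE), fell, and CTSL, the protease cathepsin L (-0.89 ± 0.26 SE), was called with overlapping groups. The symbol CTSL has 2 tested IDs, and the other is not given here. LAMP1 (-0.49), LAMP2 (-0.53), CTSA (-0.49) and TPP1 (-0.45) were lower as well, and of the autophagy genes GABARAP (-0.33), ATG5 (-0.30) and ATG4A (-0.47), named after their values were seen. On the 6 libraries alone 8 were called; without C2 replicate 3, T2 replicate 2 and T2 replicate 3 the count was 9, 10 and 9, and without C2 replicate 1 it was 26. CTSL was called in 2 of the 12 fits that left out 1 library. CTSL had a log2 fold change of -0.49 without C2 replicate 2.

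The primary cilium, a sensory protrusion that MDCK cells raise from the apical surface when they stop dividing, was lower in 8 of 33 genes (24.2%; median -0.24). IFT27 (ENSCAFG00845008277), of the intraflagellar transport train, was at 14.1, 13.3 and 16.8 CPM in C2 and 8.01, 9.48 and 7.81 CPM in T2 (log2 fold change -0.81 ± 0.15 SE, edgeR adjusted p = 0.0035). RPGRIP1L (-0.86 ± 0.14 SE) and TMEM67 (-0.75 ± 0.15 SE), parts of the transition zone at the ciliary base, fell with no overlap. IFT172, of the same transport train, fell from 31.4, 11.9 and 19.2 CPM in C2 to 10.7, 8.00 and 8.54 CPM in T2 (log2 fold change -1.20 ± 0.27 SE, edgeR adjusted p = 0.01), with C2 replicate 1 well above the other controls. On the 6 libraries alone 5 members were called, without T2 replicate 2 or 3 also 5, and without C2 replicate 2 it was 13. IFT172 was not called without T2 replicates 2 or 3 (edgeR adjusted p up to 0.053). IFT172 had a log2 fold change of -0.78 without C2 replicate 1.

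Genes of protein folding and of glycosylation in the endoplasmic reticulum were called in both directions, more of them lower than higher. The unfolded protein response list had 10 of 28 called lower (35.7%) and 3 higher (10.7%). HSP90B1, the chaperone GRP94, was at 1069, 879 and 903 CPM in C2 and 568, 593 and 574 CPM in T2 (log2 fold change -0.72 ± 0.08 SE, edgeR adjusted p = 0.00038), and CANX, calnexin, at 1433, 1625 and 1481 CPM in C2 and 1191, 1039.5 and 1028 CPM in T2 (log2 fold change -0.48 ± 0.09 SE, edgeR adjusted p = 0.0042). HERPUD1, of the degradation machinery of the reticulum (-0.80 ± 0.10 SE), SESN2, a stress-induced inhibitor of mTOR complexes (-0.88 ± 0.10 SE), and PDIA5, an isomerase (-0.62 ± 0.17 SE), fell. On the 6 libraries alone 6 were called lower and 0 higher by edgeR's test. Without T2 replicates 2 and 3 the lower count was 5 and 6 and the higher count 0, and without C2 replicate 3 the higher count was 1. In the glycosylation list 8 of 40 were called lower (20%) and 4 higher (10%). Over all genes these shares were 9.61% and 8.96%, so the share called higher was near that of all genes. The lower ones included the catalytic and accessory subunits of oligosaccharyltransferase STT3B (-0.48 ± 0.09 SE), STT3A (-0.35), MAGT1 (-0.36), DDOST (-0.30) and RPN1 (-0.25), the last 4 named after their values were seen, and GALNT12, which starts O-linked chains (-1.04 ± 0.12 SE). The higher ones included B4GALT4 (0.39 ± 0.07 SE) and FUT10 (0.62 ± 0.17 SE). Without T2 replicate 3 only 3 members were called lower and 1 higher, and without C2 replicate 3 or T2 replicate 2 there were 2 higher. Of 56 genes of traffic from the reticulum to the Golgi apparatus 8 were called lower (14.3%) and 2 higher (3.57%). The lower ones were led by KDELR3 (-0.54 ± 0.15 SE) and the cargo receptor MCFD2 (-0.40 ± 0.07 SE). On the 6 libraries alone 1 gene of this list was called lower. The lower count was 2 without C2 replicate 3 and without any of the T2 replicates, 5 without C1 replicate 1 or C2 replicate 2, and 4 without T1 replicate 3. PDIA5 was not called without C2 replicate 1 or T2 replicates 1 or 2 (edgeR adjusted p up to 0.093). FUT10 was not called without C2 replicates 2 or 3 or T2 replicates 2 or 3 (edgeR adjusted p up to 0.094). KDELR3 was not called without C2 replicates 2 or 3 or T2 replicates 1, 2 or 3 (edgeR adjusted p up to 0.1). KDELR3 had a log2 fold change of -0.31 without C2 replicate 2.

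Among calcium channels, pumps and sensors, 12 of 59 were called lower (20.3%) and 4 higher (6.78%). Beside ANXA13 and TRPM3, the calcium pump ATP2A3 was at 23.6, 14.7 and 24.9 CPM in C2 and 12.02, 12.9 and 11.9 CPM in T2 (log2 fold change -0.78 ± 0.16 SE, edgeR adjusted p = 0.0059), and ORAI2, a channel of store-operated entry (-0.61 ± 0.12 SE), fell. ANXA1 (ENSCAFG00845000040), an abundant calcium-dependent membrane binder, was at 2459, 3257 and 2239.5 CPM in C2 and 1806, 1898 and 1962 CPM in T2 (log2 fold change -0.49 ± 0.12 SE, edgeR adjusted p = 0.013). The mechanically gated channels TRPV4 (-0.38) and TMEM63A (-0.30) also fell, and those that rose were MCU (0.38), the mitochondrial calcium uniporter, PPP3CB (0.50), a catalytic subunit of calcineurin, RCAN1 (0.51), a calcineurin regulator that is itself induced by calcineurin, and CAMK1D (1.52, at low level); these 6 were named after their values were seen. Without T2 replicate 2 or 3 the number called lower was 7, and without T2 replicate 3 the number called higher was 2. In the list of other ion channels and pumps 7 of 28 were called lower (25%) and 1 higher (3.57%). ATP1B1, the accessory subunit of the sodium pump, was at 540.3, 322 and 449 CPM in C2 and 245, 239.9 and 248 CPM in T2 (log2 fold change -0.84 ± 0.14 SE, edgeR adjusted p = 0.0017). The groups did not overlap for ATP1B1, and C2 replicate 2 was the lowest control library. The potassium channels KCNQ1 (-0.76 ± 0.16 SE) and KCNK5 (-0.49 ± 0.13 SE) fell. Without C2 replicate 3, T2 replicate 2 and T2 replicate 3 the lower count was 3, 3 and 2. Of transporters of sugars, organic ions and metals 8 of 51 were called lower (15.7%) and 3 higher (5.88%, under the 8.96% of all genes). The lower count was 5 and 4 without T2 replicates 2 and 3, and the higher count 7 without C2 replicate 2. SLC39A14, a carrier of zinc, iron and manganese, rose from 44.02, 45.4 and 38.1 CPM in C2 to 71.9, 75.6 and 77.9 CPM in T2 (log2 fold change 0.82 ± 0.10 SE, edgeR adjusted p = 0.00053). SLC4A11 (-0.55 ± 0.10 SE) and the creatine carrier SLC16A12 (-0.93 ± 0.21 SE) fell. Of 34 amino acid transporters and enzymes 2 were called each way (5.88%, under the 8.96% and 9.61% of all genes). GLUL, glutamine synthetase (-0.39 ± 0.08 SE), which makes glutamine from glutamate, fell. ANXA1 was not called without T2 replicate 2 (edgeR adjusted p = 0.051). KCNK5 was not called without C2 replicates 1 or 3 or T2 replicate 3 (edgeR adjusted p up to 0.12). ANXA1 had a log2 fold change of -0.32 without C2 replicate 2.

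Metabolic and stress lists ranged from 2 of 51 genes called to 12 of 42. Over all genes 8.96% were called higher and 9.61% lower. Near or under these were fatty acid and lipid genes (5.26% and 10.5%), hypoxia and glycolysis (4.88% and 7.32%) and cholesterol genes (0% and 12%). PLIN2 (ENSCAFG00845014245), the coat protein of lipid droplets, was at 149, 252 and 222 CPM in C2 and 458, 445 and 420.4 CPM in T2 (log2 fold change 1.09 ± 0.16 SE, edgeR adjusted p = 0.0011). ABCA1 (ENSCAFG00845010374), which exports cholesterol, was at 43.2, 57.7 and 41.8 CPM in C2 and 17.7, 21.2 and 21.2 CPM in T2 (log2 fold change -1.25 ± 0.22 SE, edgeR adjusted p = 0.0031), and NPC2, which moves cholesterol out of lysosomes (-0.41 ± 0.09 SE), fell. In this list of 25 genes 3 were called, all lower. Of 38 fatty acid and lipid genes 2 were called higher and 4 lower, including PPARG, a nuclear receptor of fat storage (-0.37 ± 0.09 SE); the lower count was 2 without C2 replicate 3 or T1 replicate 3 and 0 by edgeR without T2 replicate 2 or 3. In the list of NRF2 targets, glutathione and metal stress 5 of 42 were called higher (11.9%) and 7 lower (16.7%). The share called higher was near the 8.96% of all genes. TXNRD1 rose, as did OSGIN1 (0.66 ± 0.18 SE), whose symbol has 2 IDs, the other not given here. Catalase (CAT) fell from 237, 217 and 237 CPM in C2 to 159, 157 and 160.2 CPM in T2 (log2 fold change -0.54 ± 0.06 SE, edgeR adjusted p = 0.00029). MGST3, a microsomal glutathione transferase, fell too (-0.59 ± 0.15 SE). Without C2 replicate 3, T2 replicate 2 and T2 replicate 3 the lower count was 2, 4 and 3 and the higher count 3, 3 and 2. Of 41 hypoxia and glycolysis genes 2 were called higher and 3 lower, with 9 lower without C2 replicate 2. NDRG1 (ENSCAFG00845009769), a stress and differentiation gene, was at 478, 341 and 392 CPM in C2 and 764, 628 and 609 CPM in T2 (log2 fold change 0.73 ± 0.12 SE, edgeR adjusted p = 0.0017), and PPP1R3C, which directs a phosphatase to glycogen, fell (-1.06 ± 0.19 SE). Oxidative phosphorylation held 2 called genes of 51, NDUFS8 (-0.41 ± 0.13 SE) and NDUFB3 (-0.31 ± 0.10 SE), both lower and both lost on the 6 libraries alone. PPARG was not called without T2 replicates 2 or 3 (edgeR adjusted p up to 0.075). OSGIN1 was not called without C2 replicate 3 or T2 replicates 2 or 3 (edgeR adjusted p up to 0.094). MGST3 was not called without C2 replicate 3 or T2 replicate 3 (edgeR adjusted p up to 0.089). NDUFS8 and NDUFB3 were called in 6 and 3 of the 12 fits that left out 1 library.

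Inhibitors of mTOR were among the genes that fell. In the mTOR and AMPK list 9 of 43 were called lower (20.9%) and 3 higher (6.98%), against 9.61% and 8.96% of all genes. DEPTOR was at 14.7, 6.90 and 13.2 CPM in C2 and 4.95, 3.24 and 2.62 CPM in T2 (log2 fold change -1.69 ± 0.31 SE, edgeR adjusted p = 0.0037), SESN2 at 22.6, 24.6 and 27.5 CPM in C2 and 14.7, 12.3 and 13.6 CPM in T2 (log2 fold change -0.88 ± 0.10 SE, edgeR adjusted p = 0.00038), and DDIT4, which restrains mTOR under stress, fell (-0.81 ± 0.18 SE). TBC1D7, a subunit of the TSC complex, fell as well (-0.74 ± 0.13 SE), and CASTOR1 (-0.63), the arginine sensor, AKT1 (-0.34) and AKT1S1 (-0.31) were lower while RPTOR (0.40), the scaffold of mTOR complex 1, was higher, named after their values were seen. Without C2 replicate 3, T2 replicate 2 and T2 replicate 3 the lower count was 5, 5 and 4. Of 38 p53 and apoptosis genes 3 were called higher (7.89%) and 2 lower (5.26%), under the 8.96% and 9.61% of all genes. Without C2 replicate 2 there were 5 higher, and without any of the other C2 or T2 libraries 1. The lower ones were TNFSF10 and BMF, which binds BCL2 proteins and promotes apoptosis, at 9.04, 6.47 and 8.85 CPM in C2 and 3.68, 2.54 and 2.43 CPM in T2 (log2 fold change -1.50 ± 0.18 SE, edgeR adjusted p = 0.00048); CYCS, cytochrome c, rose (0.56 ± 0.09 SE), as did CFLAR, an inhibitor of caspase activation (0.30 ± 0.09 SE). In the circadian clock list of 15 the output factors moved: TEF (ENSCAFG00845017239) was at 14.1, 22.7 and 19.4 CPM in C2 and 6.87, 5.35 and 6.73 CPM in T2 (log2 fold change -1.57 ± 0.17 SE, edgeR adjusted p = 0.00023), its relative DBP (-1.10) and the repressor CRY2 (-0.68) fell, named after their values were seen, and the repressor BHLHE41 rose (0.41 ± 0.07 SE). This clock list had 3 called lower (20%) and 1 higher (6.67%), and 5 lower without C2 replicate 2. DDIT4 was not called without T2 replicate 3 (edgeR adjusted p = 0.053). CFLAR was not called without C2 replicates 1 or 3 or T2 replicates 1, 2 or 3 (edgeR adjusted p up to 0.1).

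Signaling, matrix and cytoskeletal lists had members called in both directions, except that TGF-beta and BMP, WNT, Notch and guidance genes were called lower only. The shares called lower were 24.1%, 13.6%, 11.1% and 16% in that order, against 9.61% of all genes. WNT and Notch calls were few and near the share of all genes, so their single direction says little about those lists. Of 29 TGF-beta and BMP genes 7 were called, all lower, among them the ligand TGFB2 and the inhibitory factors SMAD7 (-0.70 ± 0.16 SE) and SMAD6 (-0.50 ± 0.08 SE); the count was 4 without C2 replicate 3, T1 replicate 3 or T2 replicate 1, and 2 and 3 without T2 replicates 2 and 3. Of 22 WNT genes 3 were called lower, including WNT5A (-1.14 ± 0.21 SE) and WNT7B (-0.35 ± 0.09 SE), and of 9 Notch genes NOTCH1 (-0.37 ± 0.09 SE). The Hippo list had 3 of 21 called higher (14.3%) and 5 lower (23.8%). WWC1, the upstream regulator KIBRA (-0.70 ± 0.12 SE), and WWTR1, the co-activator TAZ (-0.57 ± 0.13 SE), fell. TEAD4, a factor that TAZ and YAP bind, rose (0.53 ± 0.10 SE). Among 25 ephrins, semaphorins and guidance receptors 4 were called lower, NRP1 (-0.75 ± 0.14 SE) and NEO1 (-0.65 ± 0.10 SE) with no overlap and SEMA4D (-1.002 ± 0.30 SE) with overlap. The matrix list of 17 had AGRN, agrin, lower (-0.89 ± 0.20 SE) and GPC3 higher (0.74, named after its value was seen). That was 5.88% each way, under the 8.96% and 9.61% of all genes. Of 33 matrix proteases and inhibitors 5 were called higher (15.2%) and 6 lower (18.2%). The higher count was 2 on the 6 libraries alone and without T2 replicate 2 or 3, 7 without C2 replicate 1, 4 without C1 replicate 3, and 3 without any other single library. The lower count was 3 without T2 replicate 2 and 9 without C2 replicate 1. Actin and myosin genes had 5 of 49 called each way (10.2%, near the 8.96% and 9.61% of all genes), with MYL9, a myosin light chain of contractile cells (-1.14 ± 0.29 SE), lower and EZR, ezrin, higher (0.33 ± 0.10 SE). The tubulin and kinesin list had 6 of 40 called higher (15%) and 4 lower (10%, near the 9.61% of all genes). TUBB4B (0.52 ± 0.08 SE) and KLC1, a kinesin light chain (0.69 ± 0.15 SE), were higher and KIFC3, a kinesin of junctions (-0.74 ± 0.14 SE), was lower. On the 6 libraries alone 1 actin and myosin gene was called higher and 2 lower. Their higher count was 8 without C2 replicate 2, 3 without C1 replicate 3, 2 without T1 replicate 3 or T2 replicate 1, and 1 without C2 replicate 3 or T2 replicates 2 or 3; the lower count was 2 without T2 replicate 2 or 3. Leaving out C2 replicate 2 gave 5 Hippo genes higher, 5 WNT genes lower and 7 guidance genes lower. Leaving out C2 replicate 3 gave 1 Hippo gene higher, 2 guidance genes lower and 2 of the tubulin list lower. Without T2 replicate 2 or 3 there were 3 Hippo genes and 1 WNT gene lower, and without T2 replicate 3 also 1 Hippo gene higher and 2 guidance genes lower. SMAD7 and NOTCH1 were not called without T2 replicate 2 (edgeR adjusted p = 0.055 and 0.068). WNT7B and WWTR1 were not called without T2 replicates 2 or 3 (edgeR adjusted p up to 0.059 and 0.059). AGRN was not called without T2 replicate 3 (edgeR adjusted p = 0.051). MYL9 was not called without T2 replicates 1, 2 or 3 (edgeR adjusted p up to 0.065). SEMA4D and EZR were each called in 1 of the 12 fits that left out 1 library. SEMA4D and AGRN had a log2 fold change of -0.52 and -0.54 without C2 replicate 1. MYL9 had a log2 fold change of -0.65 without C2 replicate 2.

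A few genes near the limit of detection in 1 group were called. TMOD1 (ENSCAFG00845014334), a cap of actin filament ends, was at 0.901, 0.425 and 0.473 CPM in C2 and 2.15, 3.10 and 3.46 CPM in T2 (log2 fold change 2.26 ± 0.43 SE, edgeR adjusted p = 0.0038). In the other direction every T2 library was under 1 CPM for ADGRF4, an adhesion receptor (-3.08 ± 0.65 SE), IFGGB2 (-2.74 ± 0.55 SE), CLDN16, the ascorbate carrier SLC23A1 (-2.06 ± 0.52 SE), FBP1, an enzyme of gluconeogenesis (-1.95 ± 0.49 SE), and DLX3, a homeobox factor (-1.80 ± 0.38 SE). Both SLC23A1 and FBP1 were highest in C2 replicate 1. Among the most abundant called genes IL1RL1, a receptor of the interleukin family, rose from 539, 653 and 491 CPM in C2 to 1134, 959 and 926 CPM in T2 (log2 fold change 0.84 ± 0.15 SE, edgeR adjusted p = 0.0025), and KRT89 (-0.47 ± 0.11 SE), SPINT2, an inhibitor of surface proteases (-0.28 ± 0.09 SE), and ITGB3, an integrin (-0.44 ± 0.13 SE), fell. SLC23A1 was not called without T2 replicates 1, 2 or 3 (edgeR adjusted p up to 0.069). FBP1 was not called without C2 replicate 1 or T2 replicates 1, 2 or 3 (edgeR adjusted p up to 0.061). ITGB3 was not called without C2 replicate 2 or T2 replicates 2 or 3 (edgeR adjusted p up to 0.12). SPINT2 was called in 3 of the 12 fits that left out 1 library. SLC23A1 and FBP1 had a log2 fold change of -0.997 and -1.23 without C2 replicate 1.

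The genes that varied most within C2 or T2 were not called. CYP4A11, a fatty acid hydroxylase, was at 59.9, 4.22 and 33.4 CPM in C2 and 22.05, 6.52 and 2.73 CPM in T2, MMP13, a collagenase, at 70.6, 9.999 and 5.43 CPM in C2 and 12.99, 14.2 and 24.3 CPM in T2, and PCSK1, a protease of hormone precursors, at 194, 35.7 and 42.99 CPM in C2 and 48.8, 57.6 and 66.5 CPM in T2. In C2 these 3 genes, DAO and KRT27 were highest in replicate 1. With such spread no difference between the groups was detectable for them: the fold changes were -1.65 ± 0.91 SE, -0.74 ± 0.88 SE and -0.66 ± 0.55 SE, and that of KRT27 was 0.99 ± 0.80 SE.

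The 24 h response was set beside that at 12 h, which comes from separate control and treated libraries. Of the 1269 genes called higher at 24 h, 1149 (90.5%) were also higher at 12 h in direction, and of the 1361 called lower 1218 (89.5%) were lower. At 12 h 427 genes were called higher and 563 lower in all. Of the genes called higher and lower at 24 h, 284 and 345 were called in the same direction at 12 h too. The share of all genes with the same direction at both times was not computed. The difference of both responses, tested gene by gene, was called for 22 genes (0.155% of all). Ribosome biogenesis had a median of 0.14 at 12 h with 6 of 45 called, all higher, against 0.38 and 32 at 24 h; lysosome and autophagy had -0.04 with 2 called against -0.19 with 17; the difference of lists was not tested. Interferon-stimulated genes had a median of 0.15 at 12 h and -1.003 at 24 h. There DHX58 (ENSCAFG00845010366) was at 26.9 ± 2.68 CPM in C1 and 31.7 ± 4.55 CPM in T1 (SD, n = 3 per group) at 12 h (log2 fold change 0.24), so that its difference between the times was -1.92 ± 0.28 SE, edgeR adjusted p = 0.028. PARP9 (-1.48 ± 0.22 SE, edgeR adjusted p = 0.028) and USP18 (-1.41 ± 0.21 SE, edgeR adjusted p = 0.028) of the same list, and RTP4 (-2.003 ± 0.30 SE, edgeR adjusted p = 0.028), differed likewise. TEF, the clock output factor, was at 9.67 ± 1.12 CPM in C1 and 11.4 ± 0.732 CPM in T1 (SD, n = 3 per group) at 12 h and its difference was -1.81 ± 0.24 SE, edgeR adjusted p = 0.019. SESN2 was at -0.02 at 12 h and fell at 24 h, a difference of -0.85 ± 0.15 SE, edgeR adjusted p = 0.042. PLA2G4A was at 128 ± 15.6 CPM in C1 and 107 ± 7.35 CPM in T1 (SD, n = 3 per group) at 12 h, not called, and rose at 24 h, a difference of 0.77 ± 0.12 SE, edgeR adjusted p = 0.033, and PINX1, a nucleolar inhibitor of telomerase, was at 10.6, 10.2 and 9.91 CPM in C2 and 16.4, 18.6 and 18.04 CPM in T2 at 24 h with a difference of 0.85 ± 0.13 SE, edgeR adjusted p = 0.033. Of the remaining genes with a difference, MALL, of the MAL family of apical traffic, was lower at both times, at -2.17 at 12 h and -0.83 at 24 h (difference 1.34 ± 0.16 SE, edgeR adjusted p = 0.013), while GDPD2 (difference 1.34 ± 0.23 SE, edgeR adjusted p = 0.043) and TMEFF2 (difference 0.97 ± 0.15 SE, edgeR adjusted p = 0.031) were lower at 12 h and not called at 24 h. For AREG the change was 0.65 at 12 h and 3.41 at 24 h, yet the difference did not pass the test (2.76 ± 0.51 SE, edgeR adjusted p = 0.07). The count of 22 depended on single libraries. By edgeR it was 362 and 84 without C2 replicates 1 and 2, and 0, 5 and 1 without C1 replicates 1, 2 and 3. Leaving out T1 replicate 1, 2 or 3 gave 4, 9 or 0 genes, and leaving out T2 replicate 2 or 3 gave 3 or 5.

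**Figure D5:**
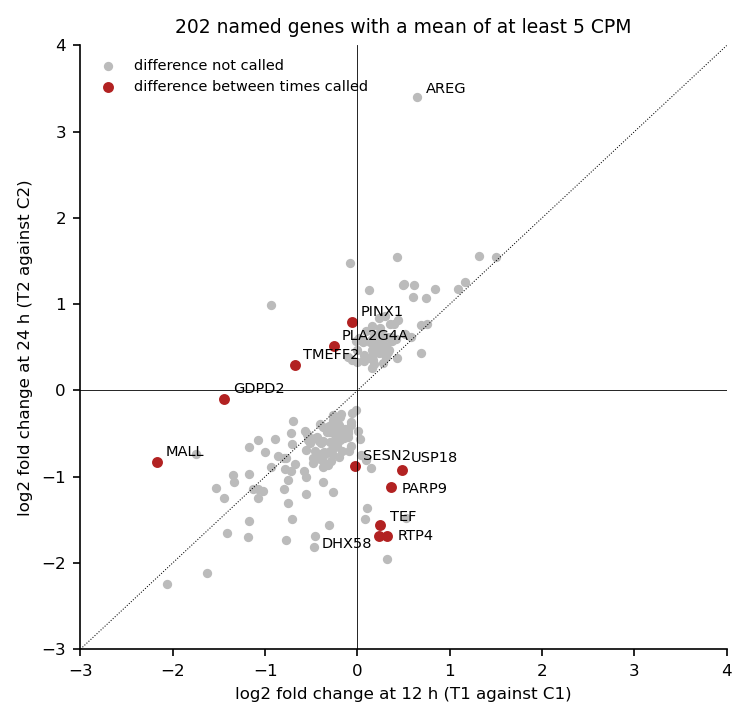
Log2 fold change at 24 h (T2 against C2, vertical axis) against that at 12 h (T1 against C1, horizontal axis) for 202 of the named genes, those with a mean of at least 5 CPM over the 6 libraries at 24 h; the dotted line marks equal changes. Red points are the 11 genes whose difference between the times was called; DHX58, RTP4, TEF, PARP9 and USP18 lie to the right of 0 at 12 h and below 0 at 24 h.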

How the data were processed

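Reads were trimmed with fastp 0.23.4, aligned with STAR 2.7.10b and quantified with RSEM 1.3.3, per the submitters' processing notes. The sources used here do not give the genome build or the gene annotation. The authors deposited expected counts and TPM per gene for each library, and a sample sheet with the time of each control. Expected counts need not be whole (91.1% were) and were rounded. Of 31121 gene IDs 13022 are paired with a symbol in the deposited files, and only those are named; 28 symbols of the gene lists belong to 2 or more IDs, so list counts are of IDs.

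All 12 libraries were fitted with edgeR 4.0.16 (R 4.3.3): filterByExpr, TMM scaling, 1 mean per group, the robust quasi-likelihood test and Benjamini-Hochberg adjustment over the 14169 genes kept. A gene is called at an adjusted p under 0.05. SE is of the log2 fold change, taken as its absolute value divided by the square root of the quasi-likelihood F. The term "no overlap" means that all 3 libraries of a group lie beyond all 3 of the other. The difference of responses is the contrast of both times. The 6-library fit, DESeq2 1.42.0, limma 3.58.1 (voom, and log2(TPM + 1) or log2(TPM + 0.1)), other scalings and filters, pooled controls, replicate blocks and leaving out each of the 12 libraries were alternatives. Voom with quality weights per group was added after seeing the data.

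Members and the 52 lists (2900 symbols, 1696 tested) were chosen with earlier results of these data known. Named genes are CDH1, the 12 highest and 12 lowest called changes without overlap at 5 CPM or more on average, up to 4 called members per list, the 8 most abundant called genes each way, genes under 1 CPM in 1 group and at least 2 CPM in the other, the 5 most variable genes of at least 20 CPM in each group, and up to 5 genes each way whose response differed between the times. In simulated counts for T2 against C2 (14169 genes, 200 changed) edgeR recovered 52% of 1.5-fold and 82% of 2-fold changes, with 134 true and 10 false calls. The simulation gave all groups the same spread per gene, whereas the coefficient of variation was 20.9% in C2 and 8.81% in T2. It also changed far fewer genes than the 2630 called, so its rates may not hold for these data. Equal replicate numbers were not taken as pairs of C2 and T2 libraries. The labels do not say whether they are, and correlations among so few libraries cannot exclude it. Some genes and 1 list are not reported here.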

Additional observations from a re-analysis of the deposited data

Results flagged for a closer look

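For 11 named genes the response to Yoda1 at 24 h differed from that at 12 h by edgeR's contrast of both responses. Lower at 24 h relative to 12 h, on the log2 scale, were RTP4 (-2), DHX58 (-1.92), PARP9 (-1.48) and USP18 (-1.41), all induced by interferon, the clock output factor TEF (-1.81) and the stress gene SESN2 (-0.85). Higher at 24 h relative to 12 h were GDPD2 (1.34), MALL (1.34), TMEFF2 (0.97), the nucleolar gene PINX1 (0.85) and the phospholipase gene PLA2G4A (0.77). GDPD2 and TMEFF2 were not called at 24 h, and MALL was lower at both times. These times have separate controls, so differences between C1 and C2 enter each value; their part in it was not tested.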

How the results depend on the processing

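The count of 2630 genes called was 1131 on the 6 libraries alone, 316 with a replicate block in the 6 libraries, and between 1134 and 3337 when 1 library was left out. At least 2-fold, 373 genes were called, against 209 on the 6 libraries, 115 with that replicate block, 152 with a filter of 5 CPM, 122 on log2(TPM + 1) and 215 to 533 with 1 library left out. The 435 called list IDs became 217, 74 with that block, and 223 to 525. The 22 genes whose response differed between times became 228 with DESeq2, 0 with a replicate block within time and 0 to 362 with 1 library left out. That block left 2677 genes called at 24 h. Voom with quality weights per group called 1775. The cause of these moves was not tested. Equal replicate numbers correlated at 0.06, -0.08 and -0.08 in their deviations, and not every library correlated best with its own number. Correlations among so few libraries cannot exclude pairing. The numbers were not taken as pairs because the labels do not say that they are. Of 200 named called genes all kept their direction in every setting run, 134 stayed called without any single library and 138 were called on the 6 libraries. Of all 2630, 1 gene that is not named had the opposite sign against pooled controls and 1 on each log2(TPM) scale. Among named genes signs turned only for those not called: TMEFF2 was at -0.10 against pooled controls, and with 1 library left out ALDH1A1 ranged from -0.87 to 0.0548, PCSK1 from -1.04 to 0.55 and MMP13 from -1.23 to 1.16, each highest without C2 replicate 1. MMP13 was also at 0.0549 with voom, 0.0977 and 0.0603 with the replicate block in 6 and 12 libraries, 0.062 and 0.11 on log2(TPM + 1) and log2(TPM + 0.1), and 0.0544 with quality weights. Depth limits genes of a few CPM, where only large changes can be called.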
